A study of Arabidopsis thaliana with 9 samples.

Results

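The nucleotide-binding leucine-rich repeat receptors of *Arabidopsis* were examined in leaves exposed to eggs of the butterfly *Pieris brassicae*. Members were the genes whose description in the deposited table contains NBS or NB-ARC, the names of the nucleotide-binding domain, without the helper receptors of the ADR1 and NRG1 groups, 3 of which carry such a description. This gave 106 of 17605 genes. By the wording of the description, 74 were of the TIR class, 14 of the CC class and 18 carried neither word and are called unclassed. The unclassed genes include *RPM1*, *RPS2*, *RPP13* and *SUMM2*, which are known as CC receptors, so the class is a label of the annotation and not a domain search. Leaves of 5-week-old Col-0 plants, the wild type, were compared in 3 groups of 3 libraries: plants treated with egg extract (EE), where 2 drops of 2 µL were placed on each of 2 leaves of 4 plants and left for 5 days, plants with natural oviposition, where 4 plants carrying 1 egg batch on 2 leaves stood for 4 days after 24 h with butterflies, and untreated control plants. The 3 libraries of a group came from biologically independent experiments, and the eggs were removed before hatching.

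Intracellular receptors of this family detect effector proteins that pathogens deliver into plant cells, either directly or by guarding a host protein that the effector alters. The nucleotide-binding domain acts as a switch, the leucine-rich repeats take part in recognition and autoinhibition, and the N-terminal domain passes the signal on. TIR receptors signal through EDS1 with PAD4 or SAG101 and the helper receptors, whereas several CC receptors form membrane channels themselves and many depend on NDR1. Activation often ends in local cell death and salicylic acid accumulation, and because too much receptor is harmful to the plant, the level of these transcripts is held low by several repressors. The family sits in clusters of related copies. Of the 106 members, 65 had another member within 50 kb, in 22 clusters, the largest of which held 8 genes around *RPP4*, *RPP5* and *SNC1* on chromosome 4.

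The sequences just upstream of the members that passed the test are shown first, because the calls rest on these genes. For each, the 250 bases before the start of the gene in the RefSeq annotation of TAIR10.1 are given 5′ to 3′ on the gene's strand, with matches to the W-box, the WRKY factor motif searched as TTGACC or TTGACT on both strands (GGTCAA and AGTCAA on the printed strand), in capitals. *RMG1* (At4g11170) lies on the plus strand of chromosome 4, and its window is chr4:6810853-6811102. At3g04220 and At4g14370 lie on minus strands, with windows chr3:1112438-1112687 and chr4:8283536-8283785. The RefSeq starts differ from the gene starts of the deposited table for these genes.
RMG1: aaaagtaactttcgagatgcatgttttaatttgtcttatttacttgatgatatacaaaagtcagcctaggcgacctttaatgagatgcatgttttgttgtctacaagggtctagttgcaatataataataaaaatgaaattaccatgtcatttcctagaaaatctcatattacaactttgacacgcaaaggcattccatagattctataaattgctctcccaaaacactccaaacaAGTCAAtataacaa
AT3G04220: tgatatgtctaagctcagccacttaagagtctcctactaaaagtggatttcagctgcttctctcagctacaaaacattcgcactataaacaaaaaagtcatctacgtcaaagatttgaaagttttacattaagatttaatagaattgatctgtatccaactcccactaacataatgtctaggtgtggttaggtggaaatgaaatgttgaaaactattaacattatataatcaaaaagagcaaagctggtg
AT4G14370: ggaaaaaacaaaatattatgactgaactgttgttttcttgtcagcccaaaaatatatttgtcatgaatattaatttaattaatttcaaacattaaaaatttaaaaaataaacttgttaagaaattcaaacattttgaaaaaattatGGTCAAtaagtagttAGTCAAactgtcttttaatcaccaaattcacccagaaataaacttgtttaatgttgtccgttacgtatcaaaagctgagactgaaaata
The *RMG1* window held 1 match, that of At4g14370 held 2 and that of At3g04220 held 0. At least 1 match was found in 44 of the 106 members (41.5%), in 32 of the 74 TIR genes (43.2%), 6 of the 14 CC genes (42.9%) and 6 of the 18 unclassed genes (33.3%), and in 28.4% of the 17423 genes of the whole table with such a window. At least 2 matches were found in 12 members (11.3%) and in 6.21% of all genes. A match is a run of letters and says nothing of binding.

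Between 37348236 and 47057692 reads per library were recovered from the deposited values, and the members took between 0.233% and 0.656% of them. Values are log2 CPM, reads scaled to library size, in which all libraries have the same median. Members' reads were scarcest in control replicate 3 (0.233%) and oviposition replicate 1 (0.266%). In the same 2 libraries the 10 most abundant genes took 16.2% and 11.7% of the reads, against 5.25% to 8.52% in the other 7, and the summed level of 4 mesophyll genes (*RBCS1A*, *CAB2*, *CA1* and *GAPA*) was 31342 and 20392 CPM, against 4914 to 13757 CPM in the others. The 4 genes differed in spread. In controls their log2 CPM ran from 11.92 to 14.10, 5.69 to 13.40, 6.32 to 10.83 and 9.81 to 10.84 in that order. All 4 mesophyll and all 3 guard cell markers listed were in the table, while the 7 listed markers of trichomes, roots, flowers and seeds were not among the 17605 genes. The guard cell sum was 45.6 to 52.2 CPM after EE, 43.9 to 54.0 CPM after oviposition and 50.7 to 69.8 CPM in controls. Within it, the log2 CPM of *MYB60* was 1.44 to 2.86 after EE and 1.48 to 3.196 after oviposition, below all controls at 3.54 to 3.75. That of *KAT1* was 4.79 to 5.08 after EE and 4.58 to 5.05 after oviposition, within the control range of 3.89 to 5.30. That of *FAMA* was 3.18 to 3.98 after EE and 3.41 to 3.91 after oviposition, against 3.96 to 4.60 in controls. The guard cell markers thus differed from each other, and their part in the results was not tested. In bulk leaves, fewer cells of a type and less RNA per cell cannot be told apart.

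*RMG1*, a TIR receptor annotated as raised by the bacterial peptide flg22 and controlled by DNA methylation of its promoter, was the member with the highest fold change under both treatments. Its log2 CPM was 3.26, 2.98 and 2.44 in EE-treated leaves, 0.21, 0.55 and 0.58 in oviposited leaves, and -3.69, -4.97 and -5.99 in control leaves. This stood for 454, 414 and 215 reads after EE, 44, 63 and 65 reads after oviposition, and 3, 1 and 0 reads in controls, so the gene was close to undetected in untreated leaves. The 3 groups did not overlap. The mean level was 7.63 ± 2.08 CPM after EE, 1.37 ± 0.186 CPM after oviposition and 0.0417 ± 0.0321 CPM in controls (SD, n = 3 each). *RMG1* rose by 7.78 on the log2 scale after EE (SE 0.63, limma adjusted p = 0.000522) and by 5.33 after oviposition (SE 0.63, limma adjusted p = 0.00521). With 4 control reads in all, the fitted fold change depends on the 0.5 reads added to every value. The ratio of pooled reads per library size was 242 after EE (95% exact interval 94.3 to 890) and 42.1 after oviposition (16.1 to 156), where the intervals cover counting error only. The *RMG1* gene spans chr4:6811127-6817130 (TAIR10, plus strand), and no other RefSeq gene overlaps it.

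The call for *RMG1* after oviposition was lost when only oviposition and control libraries were modelled (adjusted p = 0.0936), with 1 CPM added before the logarithm (log2 fold change 1.18, adjusted p = 0.0525) and with voom on the recovered reads (adjusted p = 0.0561). It held without any 1 library, with a log2 fold change of 4.77 to 5.93 and limma adjusted p of 0.00648 to 0.032. The EE call held in each of these settings.

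EE left *RMG1* above oviposition by 2.45 on the log2 scale, and all 3 EE libraries lay above all 3 oviposition libraries. The ratio of pooled reads was 5.76 (95% exact interval 4.9 to 6.8, counting error only). In the model across all genes this difference had an unadjusted p of 0.00389 and did not pass after adjustment (limma adjusted p = 0.769), while with 1 CPM added it did (log2 difference 1.84, limma adjusted p = 0.0299). In that comparison no member was called higher or lower by the main model, against 0.0114% and 0.00568% of all genes, and 3 members were higher at an unadjusted p under 0.05 and 0 lower (2.83% in all, against 2.85% of all genes). Beside *RMG1* these were *RPS4* (0.57) and At5g22690 (0.88), a TIR gene named after its values were seen.

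At3g04220 (chr3:1109118-1112188, minus strand), a TIR-NBS-LRR gene without a further name in the files, had log2 CPM values of 1.56, 1.70 and 1.64 after EE, -0.79, 1.31 and 0.60 after oviposition, and -1.002, -2.32 and -1.40 in controls. The EE libraries lay close together and above all others, and the oviposition libraries also lay above all controls. It rose by 3.21 after EE (SE 0.60, limma adjusted p = 0.0234). The pooled reads, 430 against 42, gave a ratio of 9.15 (95% exact interval 6.66 to 12.9, counting error only). After oviposition the log2 fold change was 1.95 (SE 0.60, limma adjusted p = 0.268). The EE call was lost with quantile normalization (log2 fold change 2.34, adjusted p = 0.0883), without any 1 of the EE libraries (adjusted p = 0.095 to 0.112) and without control replicate 3 (adjusted p = 0.0555). At3g01445 on the opposite strand, not in the table, overlaps it by 245 bases.

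At4g14370 (chr4:8279641-8283263, minus strand), also TIR-NBS-LRR, had log2 CPM values of 2.69, 1.84 and 2.68 after EE, 1.49, 1.75 and 2.28 after oviposition, and 0.43, -1.45 and 0.41 in controls. Both treatments lay above all controls, and the EE and oviposition libraries overlapped. It rose by 2.61 after EE (SE 0.55, limma adjusted p = 0.0405). The pooled reads, 744 against 116, gave a ratio of 5.73 (95% exact interval 4.71 to 7.04, counting error only). After oviposition the log2 fold change was 2.04 (SE 0.55, limma adjusted p = 0.165). Its adjusted p after EE was 0.033 to 0.182 without each library in turn and stayed under the threshold without control replicate 2 or 3. The call was also lost when only EE and control libraries were modelled (adjusted p = 0.111), with voom (adjusted p = 0.0604) and with a filter on a mean log2 of at least 0 (limma adjusted p = 0.0501).

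These were all the calls. After EE, 3 of 106 members (2.83%) were called higher, against 2.73% of all genes, and 0 were called lower, against 0.29% of all genes. After oviposition, 1 member (0.943%) was called higher, against 1.49% of all genes, and 0 were called lower, against 0.00568%. At an unadjusted p under 0.05, 8 members were higher and 1 lower after EE (8.49% in all, against 13.4% of all genes), and 5 were higher and 3 lower after oviposition (7.55%, against 7.69%). The share of members called was thus close to that of all genes. All called members were of the TIR class, in which 3 of 74 were called after EE and 1 after oviposition. None of the 14 CC genes had an unadjusted p under 0.05 in any comparison, and of the 18 unclassed genes 1 had after each treatment. The classes were not tested against each other.

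**Figure D1:**
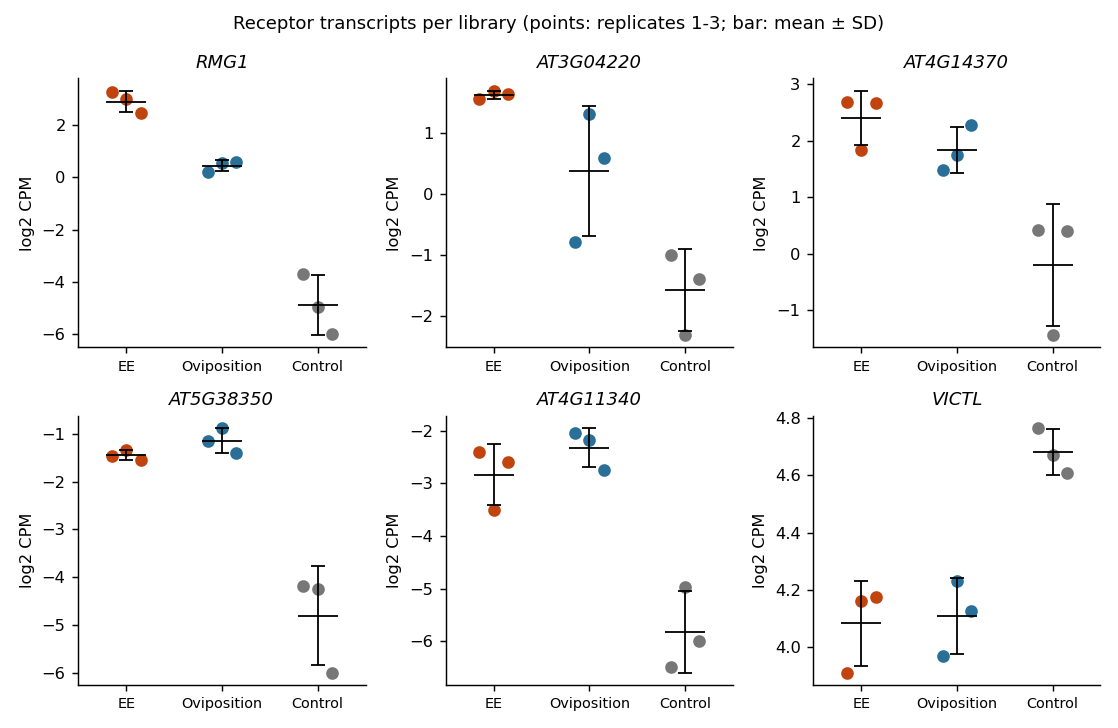
Log2 CPM (vertical axis, a separate scale for each panel) of 6 receptor genes in the EE, oviposition and control libraries, where points are replicates and the bar is the mean ± SD (n = 3). *RMG1* runs between 2.44 and 3.26 after EE, 0.21 and 0.58 after oviposition and -5.99 and -3.69 in controls, and *VICTL* is the only one of the 6 with all treated libraries below all controls.

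A further pair of members with few control reads was high in both treatments without passing the main test. At5g38350, an unclassed NBS-LRR gene, had 16, 20 and 13 reads after EE, 17, 23 and 16 after oviposition, and 2, 2 and 0 in controls. Its log2 fold change was 3.35 after EE and 3.65 after oviposition (SE 0.83 each, limma adjusted p = 0.0793 and 0.0833), and all treated libraries lay above all controls. The ratio of pooled reads was 11 after EE (95% exact interval 4.01 to 41.8) and 13.7 after oviposition (5.06 to 52), with counting error only. At4g11340, a TIR gene named here after its values were seen, had 8, 4 and 6 reads after EE, 9, 9 and 6 after oviposition, and 0, 1 and 0 in controls. Its log2 fold change was 2.98 after EE and 3.49 after oviposition (SE 1.12 each, limma adjusted p = 0.275 and 0.306). Without the mean-variance trend in the model both genes were called after both treatments (adjusted p = 0.00617 to 0.0093), which made 5 members after EE and 3 after oviposition. With quantile normalization the EE values were 0.54 for At5g38350 and -0.31 for At4g11340, so the direction of At4g11340 turned, and with 1 CPM added they were 0.39 and 0.17.

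In 10 members all EE libraries lay above all controls (9.43%, against 9.12% of all genes), and in 2 they lay below (1.89%, against 9.71%). Beside the 5 genes above, the higher members were At3g25510, At5g41550, At5g48780 and At5g58120 of the TIR class and At1g63350 of the CC class, named after their values were seen. Their log2 fold changes were 1.66, 1.19, 0.45, 0.85 and 0.63 in that order. For oviposition, 5 members lay above all controls (4.72%, against 5.96% of all genes) and 3 below (2.83%, against 3.28%). The 5 were the genes with per-library values above, and each of them was also above all controls after EE, although both comparisons use the same control libraries. Between EE and oviposition, 10 members lay higher in all EE libraries (9.43%, against 4.28% of all genes) and 0 lower, against 6.06%.

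*VICTL* (At5g46510), a neighbour and relative of the TIR gene *VICTR*, had all treated libraries below all controls. Its log2 CPM was 3.91, 4.16 and 4.18 after EE, 3.97, 4.23 and 4.13 after oviposition, and 4.77, 4.67 and 4.61 in controls. The log2 fold change was -0.60 after EE and -0.57 after oviposition (SE 0.18 each), with limma adjusted p of 0.164 and 0.306. *VICTR* itself, required for root growth arrest by a synthetic compound, had log2 fold changes of -0.09 and 0.06, so the neighbouring genes differed in their values. At5g40910, a TIR gene named after its values were seen, also had all treated libraries below all controls, with log2 fold changes of -0.25 after EE and -0.42 after oviposition. The lowest fold change of all members was that of At4g19050, an unclassed gene, with -1.29 after EE and -1.31 after oviposition (SE 0.80 each, limma adjusted p = 0.584 and 0.926). Its values spread from -1.56 to 0.27 after EE, from -0.88 to 0.51 after oviposition and from -0.47 to 2.17 in controls, so the groups overlapped. Among TIR genes the lowest after oviposition was At4g19530, with 5.07, 4.89 and 6.45 after oviposition against 7.16, 6.06 and 6.52 in controls (log2 fold change -1.11, limma adjusted p = 0.572).

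Within the CC class all 14 log2 fold changes lay within 1 of 0 after both treatments. Over all genes the share within 1 was 86.9% after EE and 90.8% after oviposition, and in the TIR class 85.1% and 93.2%. The highest after EE was At1g15890 (0.89, limma adjusted p = 0.489), with 4.54, 3.69 and 4.53 after EE against 3.95, 3.53 and 2.62 in controls, and the lowest was At5g43740 (-0.26, adjusted p = 0.773). After oviposition the highest was At1g12290 (0.25) and the lowest *RPP8L4*, a relative of the oomycete resistance gene *RPP8* (-0.38), both with an adjusted p of 0.998. The reads of the *RPP8* relatives, like those of the *RPP4* and *RPP5* cluster, come from near-identical copies, and how reads that match several copies were counted is not given in the sources used here, so the values of single copies are uncertain.

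Levels were compared between genes per kb of exon in control leaves. The median was 4.93 CPM per kb over all members (log2 2.30), 4.33 in the TIR class, 8.03 in the CC class and 5.2 among the unclassed genes, and the log2 level ran from -6.70 for *RMG1* to 6.52 for *RLM3*, a TIR-NBS gene of fungal resistance. The next highest were the TIR-NBS gene At3g04210 (6.49), the unclassed At1g58602 (6.06) and *SNC1* and *RPP8* (5.80 each). All 3 genes called after EE had a log2 level below -2 per kb in controls, that is *RMG1*, At3g04220 (-3.37) and At4g14370 (-2.06). Genes with few reads vary more on a log scale, and the order of fold change by level is a description across genes. The control mean also enters the fold change, so a low control level and a large rise are not independent of each other.

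**Figure D2:**
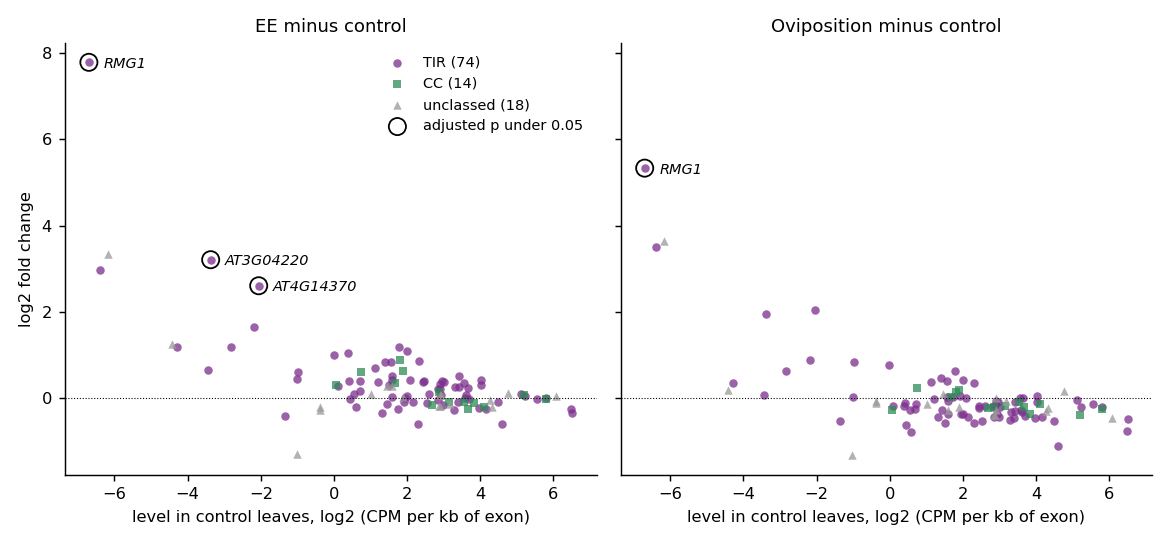
Log2 fold change (vertical axis) of each of the 106 receptor genes after EE (left) and oviposition (right) against its level in control leaves as log2 CPM per kb of exon (horizontal axis, mean of 3 libraries). Circled genes had an adjusted p under 0.05, and all of them sit at the low end, with *RMG1* at -6.70, while most of the other genes lie near 0. Both axes use the same control means and are not independent.

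Class medians were small beside the spread between libraries. The median log2 fold change after EE was 0.24 in the TIR class, 0.04 in the CC class and 0.03 in the unclassed genes, beside -0.04 over all 17605 genes. After oviposition it was -0.17, -0.18 and -0.15 in the same order, beside -0.02 over all genes. Between EE and oviposition it was 0.41, 0.29 and 0.13, beside -0.04 over all genes, so within each comparison the 3 classes had the same sign. The mean was higher in 69 of 106 members after EE (65.1%), in 33 after oviposition (31.1%) and in 94 for EE over oviposition (88.7%), against 46.9%, 47.7% and 45.9% of all genes.

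The libraries of 1 group differed by more than these medians. The median difference of TIR genes from their control mean was 0.09, 0.18 and 0.38 in EE replicates 1, 2 and 3, -0.44, -0.30 and 0.34 in oviposition replicates 1, 2 and 3, and 0.46, 0.04 and -0.46 in control replicates 1, 2 and 3. CC genes gave -0.02, -0.01 and 0.15 after EE, -0.29, -0.32 and 0.38 after oviposition, and 0.40, 0.19 and -0.64 in controls. The unclassed genes gave -0.17, 0.18 and 0.09 after EE, -0.56, -0.28 and 0.19 after oviposition, and 0.47, 0.24 and -0.65 in controls. All 3 classes were thus high in control replicate 1 and oviposition replicate 3 and low in control replicate 3 and oviposition replicate 1. The median over all genes was between -0.07 and 0.04 in every library.

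Control replicate 3 was the lowest of its group for 78 of 106 members (73.6%, against 35.6% of all genes), and oviposition replicate 1 for 61 (57.5%, against 35.8%). In 43 members (40.6%, against 15.3% of all genes) these were the 2 lowest of all 9 libraries, and the share was 36.5% of TIR, 50% of CC and 50% of unclassed genes. An example chosen after its values were seen was the TIR gene At5g18370, with 3.18, 3.94 and 3.86 after EE, 0.53, 2.85 and 3.91 after oviposition, and 3.29, 3.86 and 0.65 in controls. At4g16940 of the *RPP5* cluster, chosen likewise, gave -0.59, 0.33 and -0.63 after EE, -3.51, 0.22 and 0.64 after oviposition, and 0.14, 1.37 and -4.38 in controls. In both genes 1 oviposition and 1 control library lay more than 2 below the rest of their groups. The mesophyll sum was highest in the same pair of libraries (20392 and 31342 CPM), and its part in these values was not tested. Oviposition replicate 2, with class medians of -0.30, -0.32 and -0.28, had a mesophyll sum of 7092 CPM.

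Without control replicate 3 and oviposition replicate 1, a setting added after the data were seen, the class medians after EE were -0.01 for TIR, -0.22 for CC and -0.26 for unclassed genes, and after oviposition -0.27, -0.23 and -0.30. The median over all genes was -0.04 in both. The TIR median after EE was thus close to 0 and to that of all genes, and the CC and unclassed medians were below 0. Between EE and oviposition the medians in this setting were 0.24 for TIR, 0.06 for CC and 0.01 for unclassed genes, beside -0.003 over all genes. The mean was higher after EE in 89.2% of TIR, 57.1% of CC and 55.6% of unclassed genes, against 49.5% of all genes. The call of *RMG1* held after both treatments and that of At3g04220 after EE, while that of At4g14370 was lost (log2 fold change 2.91, limma adjusted p = 0.0766). Leaving out control replicate 1 turned the oviposition medians to 0.08 for TIR, 0.06 for CC and 0.01 for unclassed genes, and leaving out oviposition replicate 1 alone gave 0.00, 0.04 and 0.02.

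Within a replicate number, EE minus control had a TIR median of -0.29, 0.09 and 0.79 for numbers 1, 2 and 3, and oviposition minus control had -0.86, -0.44 and 0.74. For CC genes the values were -0.35, -0.15 and 0.79 after EE and -0.71, -0.48 and 1.08 after oviposition, and all 14 CC genes were higher in oviposition replicate 3 than in control replicate 3, against 0 of 14 for number 2. The sign of the class medians thus differed between replicate numbers under both treatments. For oviposition these are differences between single libraries, since not all numbers paired oviposition with control. The correlation was 0.674 for number 2 but 0.0226 and -0.157 for numbers 1 and 3. Between EE and control the correlations set only number 2 apart, so the same limit applies to EE for numbers 1 and 3.

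**Figure D3:**
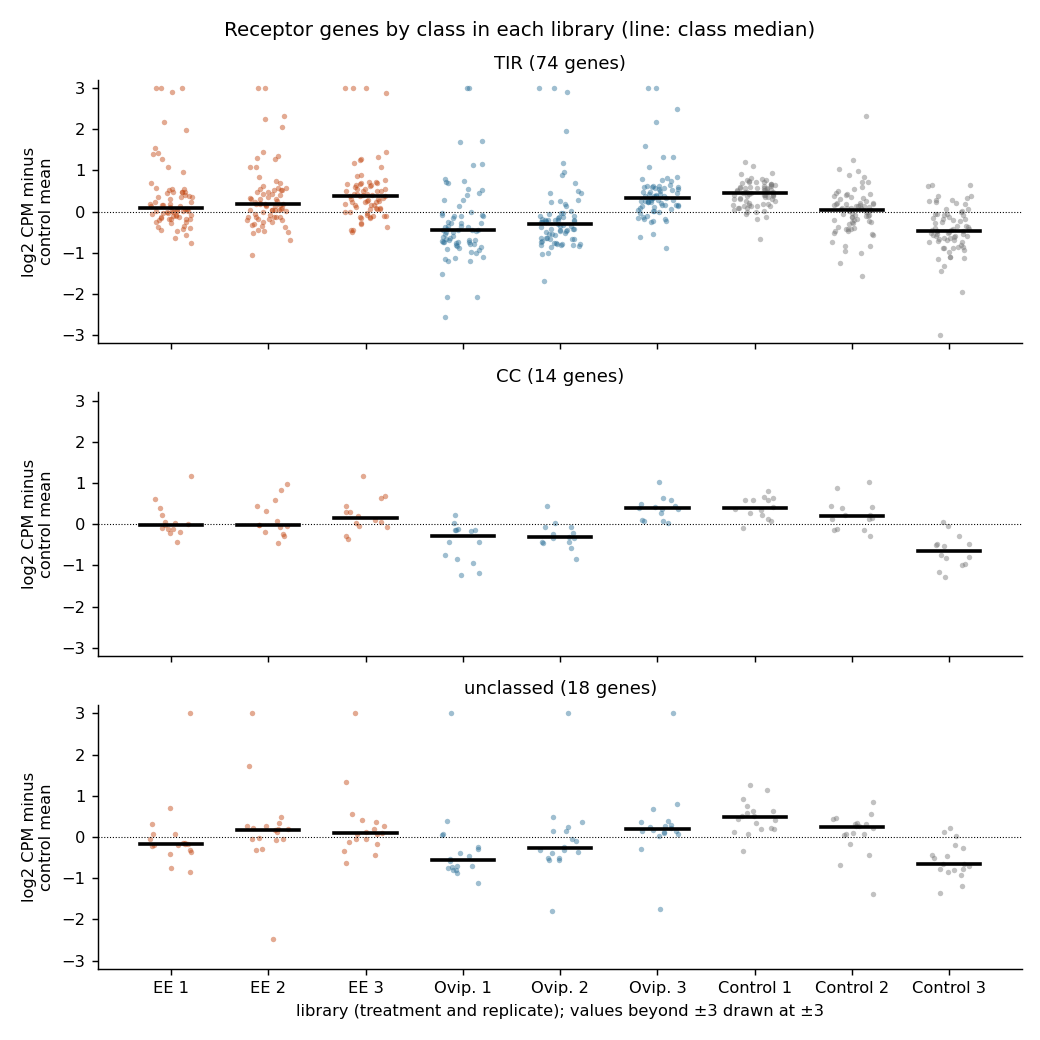
Difference of each gene from its control mean in log2 CPM (vertical axis) in each library (horizontal axis), in separate panels for 74 TIR, 14 CC and 18 unclassed genes, with the class median as a line and values beyond ±3 drawn at ±3. The class medians move together from library to library, from -0.65 in control replicate 3 to 0.47 in control replicate 1 for the unclassed genes, with EE libraries in between.

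Receptors with known roles were described by a list. Their log2 fold changes lay between -0.76 and 1.19 over both treatments, and none passed the test. *RPS4* and *RRS1* act as a pair, in which RRS1 carries a decoy of the WRKY domain and RPS4 starts signalling, and they recognise bacterial effectors together. The genes lie head to head on chromosome 5, with *RPS4* on the minus strand (18321914 to 18326022) and *RRS1* on the plus strand (18326203 to 18332609), so that both are read away from a gap of 180 bases in the gene models of the deposited table. That gap is shown on the plus strand because it is the shared upstream region of the pair, with its 1 W-box match in capitals.
RPS4-RRS1 (chr5:18326023-18326202): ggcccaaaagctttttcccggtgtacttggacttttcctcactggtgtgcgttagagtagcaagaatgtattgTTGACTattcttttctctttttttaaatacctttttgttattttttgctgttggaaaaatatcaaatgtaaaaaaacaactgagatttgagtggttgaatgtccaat
*RPS4* had log2 CPM values of 5.58, 5.43 and 6.003 after EE, 5.02, 4.87 and 5.43 after oviposition, and 5.38, 5.58 and 5.24 in controls. *RRS1* had 5.00, 5.37 and 5.61 after EE, 4.192, 4.59 and 5.35 after oviposition, and 5.08, 5.49 and 4.26 in controls. The log2 fold changes of *RPS4* and *RRS1* were 0.27 and 0.39 after EE and -0.30 and -0.23 after oviposition, with adjusted p of 0.723 and 0.771 after EE and 0.998 for both after oviposition in limma. For *RPS4* the EE libraries did not overlap the oviposition libraries.

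The other listed pairs were At1g17600 with *CHS1* and *CSA1* with *CHS3*. *CHS1*, a TIR-NBS gene whose mutant is sensitive to chilling, had log2 fold changes of -0.25 after EE and 0.04 after oviposition, and its partner At1g17600 had 0.10 and -0.26. These genes lie on opposite strands, and their RefSeq models overlap by 3193 bases. *CSA1*, annotated in shade responses, had -0.15 and -0.42. Its partner *CHS3* has no NBS in its description and is no member, and gave 0.27 and -0.15. No gene of these pairs passed the test, and the lowest limma adjusted p among them was 0.76.

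The cluster of 8 holds *RPP4* and *RPP5*, named in the annotation for recognition of the downy mildew *Peronospora parasitica*. There *RPP4* had log2 fold changes of 0.00 after EE and -0.12 after oviposition, and *RPP5* had 0.05 and -0.20. *SNC1*, whose gain-of-function allele gives constant immunity, had 0.01 and -0.19. *RLM3* gave -0.33 and -0.48. The log2 CPM of *SNC1* was 8.07, 8.06 and 8.39 after EE, 7.91, 7.45 and 8.53 after oviposition, and 8.47, 8.09 and 7.92 in controls. The groups overlapped, and the oviposition libraries alone spanned more than 1 on the log2 scale. The same held for *RPS6*, a TIR receptor of bacterial resistance, with 6.60, 6.83 and 6.71 after EE, 5.61, 6.15 and 7.08 after oviposition, and 7.54, 6.94 and 5.94 in controls (log2 fold changes -0.09 and -0.53).

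Receptors that guard host proteins gave values of similar size. *RPS2* and *RPM1*, which guard RIN4, had log2 fold changes of -0.12 and 0.02 after EE and -0.06 and -0.19 after oviposition. *SUMM2*, which monitors a MAP kinase cascade, had 0.08 and 0.02. For *RPS2* the 95% interval was -0.75 to 0.51 after EE. On the opposite strand At4g26095 overlaps *RPS2* by 3285 bases and At4g26100 by 423 bases, and both were measured here. Whether reads were counted by strand is not given in the sources used here. The oomycete receptors *RPP1*, *RPP8* and *RPP13* had 0.52, -0.01 and 0.13 after EE and -0.09, -0.24 and 0.18 after oviposition. *WRR4*, of white rust resistance, had 0.23 and 0.01, *LAZ5* had -0.02 and -0.40, *LOV1*, the victorin sensitivity gene, had -0.18 and -0.26, and At1g58602 had 0.05 and -0.46.

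TIR-NBS genes lack the leucine-rich repeats. At1g66090 had 4.68, 3.03 and 3.38 after EE, 3.67, 3.19 and 2.56 after oviposition, and 3.08, 1.55 and 2.89 in controls (log2 fold changes 1.19 and 0.63, limma adjusted p = 0.402 and 0.998). At3g04210 had 7.33, 7.56 and 7.67 after EE, 6.93, 6.93 and 7.16 after oviposition, and 8.01, 7.19 and 8.10 in controls, so that all oviposition libraries lay below all controls (log2 fold change -0.76, limma adjusted p = 0.432). At3g04210 lies next to At3g04220 on the same strand, and the oviposition values of At3g04220 were above all controls. Over all 9 TIR-NBS genes the median was 0.33 after EE and 0.04 after oviposition, and over the 65 TIR-NBS-LRR genes it was 0.23 and -0.17.

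**Figure D4:**
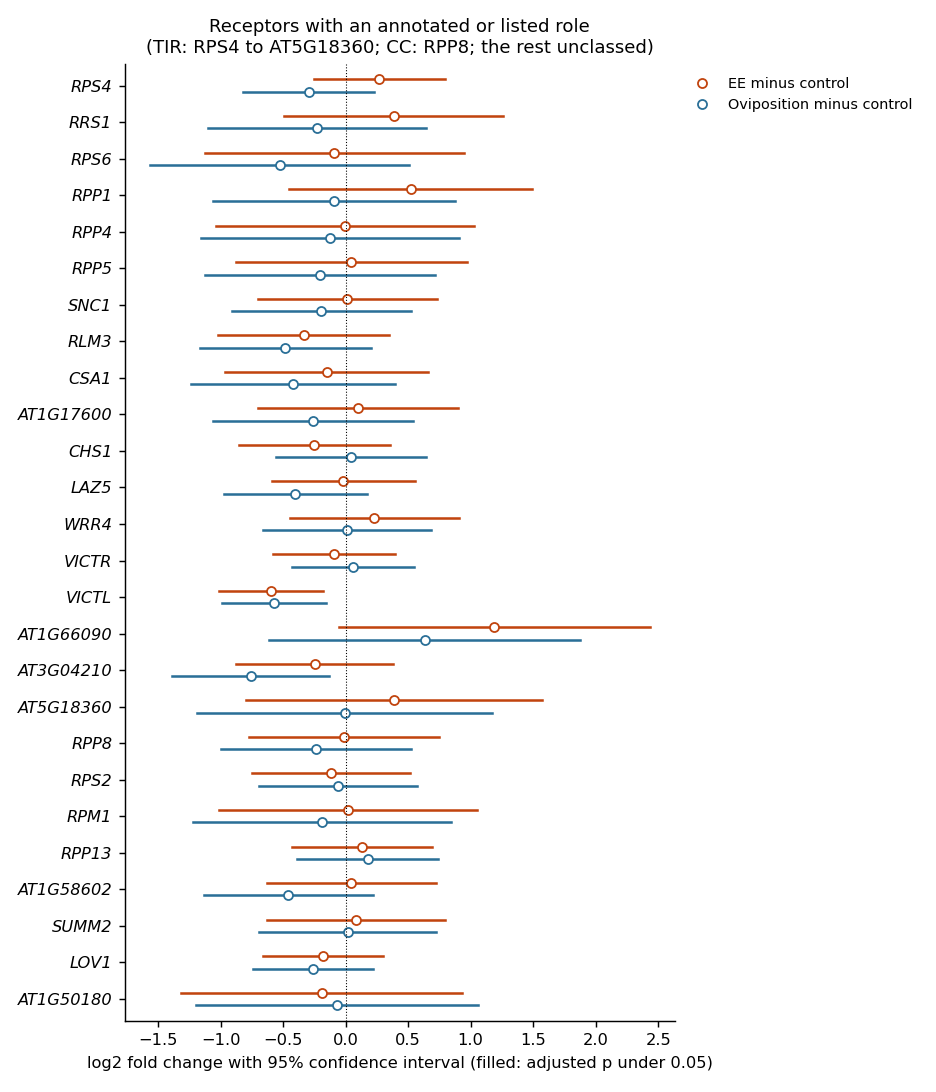
Log2 fold change (horizontal axis) with 95% confidence interval of 26 receptor genes with a listed role or a place beside one, for EE (upper line of each gene) and oviposition (lower line) over control. All points are open, that is, no adjusted p was under 0.05, and the intervals of *VICTL* are below 0 under both treatments.

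Genes that work with the receptors were taken from a list of 29, all in the table. After EE, 1 was called higher and 0 lower, beside 2.73% and 0.29% of all genes, and after oviposition 0 and 0, beside 1.49% and 0.00568%. The called gene was *PBL2* (named *APK2A* in the annotation), a receptor-like cytoplasmic kinase that *ZAR1* guards, with 5.51, 5.66 and 5.14 after EE, 4.98, 5.29 and 4.95 after oviposition, and 3.93, 4.36 and 3.85 in controls. Both treatments lay above all controls. It rose by 1.39 after EE (SE 0.23, limma adjusted p = 0.0126), and the log2 fold change after oviposition was 1.03 (SE 0.23, limma adjusted p = 0.0759), which with the replicate number as a block was called (adjusted p = 0.0338). The EE call was lost without EE replicate 1 (adjusted p = 0.0796) or EE replicate 2 (adjusted p = 0.0638) and without both control replicate 3 and oviposition replicate 1 (adjusted p = 0.0519).

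The signalling genes of the TIR pathway gave no call. *EDS1* had a log2 fold change of -0.39 after EE and -0.32 after oviposition, *PAD4* had 0.45 and 0.61, *SAG101* had 0.34 and 0.09, and *NDR1*, of the CC pathway, had -0.51 and -0.26. Of the 7 chaperone genes (HSP90, SGT1 and RAR1) that hold receptors ready for activation, the largest value was that of *HSP90.1*, with 1.04 and 0.72. The 9 listed genes that act on receptor levels, among them the F-box gene *CPR1*, which lowers them, and *MOS2*, which *SNC1*-dependent immunity needs, ran from -0.17 to 0.51 after EE and from -0.61 to 0.24 after oviposition. Among the helper receptors *ADR1-L2* lay above all controls under both treatments (0.74 and 0.64, limma adjusted p = 0.0841 and 0.212). *ADR1* (0.92 and 0.98) and *ADR1-L1* (0.37 and 0.22) were higher in the mean but overlapped controls. *NRG1.1* (-0.23 and -0.12) and *NRG1.2* (-0.27 and -0.35) were lower in the mean. Of 6 salicylic acid genes, *PR1* and *CBP60G* were called higher after EE (8.802 and 1.86) and *PR1* after oviposition (7.002). Over all genes 2.73% and 1.49% were called higher. *CBP60G* had 1.22 after oviposition without a call. The genes called after neither treatment went both ways. *SARD1* had 0.76 and 0.65, *ICS1* 0.69 and 0.89, *NPR1* 0.17 and -0.04, and *WRKY70* -0.83 and -0.31.

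**Figure D5:**
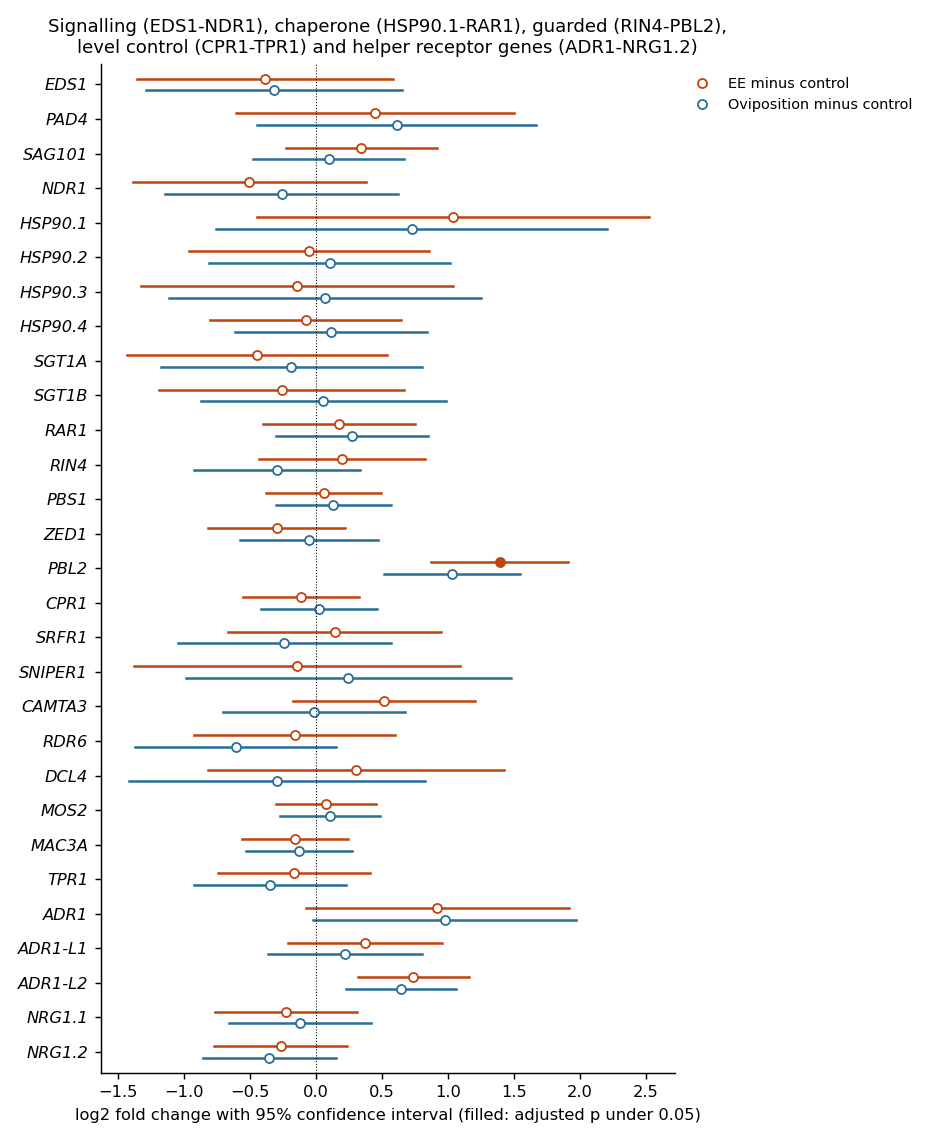
Log2 fold change (horizontal axis) with 95% confidence interval of 29 genes for receptor signalling, folding, guarding, level control and helper receptors, for EE (upper line) and oviposition (lower line) over control. The filled point is *PBL2* after EE at 1.39, the only value with an adjusted p under 0.05.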

How the data were processed

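RNA of 9 *Arabidopsis* leaf libraries (3 each after EE, after oviposition and untreated) was sequenced as stranded mRNA. The authors mapped reads with STAR to TAIR10, normalized counts by TMM and library size, and deposited log2 CPM for 17605 genes. The labels also name cutadapt 1.5, HTSeq, edgeR 3.4.0 and limma 3.2. A deposited table of the authors' own fold changes and adjusted p-values was not used. Whole reads could be recovered for all 158445 values (100%) within a tolerance of 0.01 reads, given 0.5 added reads and a size and factor per library. A count model (limma voom) on these reads called 326 genes higher and 17 lower after EE, and 67 and 0 after oviposition, against 481 and 51, and 263 and 1, on the deposited values. Alternatives were the replicate block, 2-group fits, quantile scaling, 1 CPM added, a filter, no trend and leaving out libraries.

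Log2 values were fitted with limma 3.58.1 in R 4.3.3 (1 mean per group, all 9 libraries, variances following the mean-variance trend), and Benjamini-Hochberg adjustment ran over all 17605 genes for each comparison (threshold 0.05). The script was tested on simulated data. With 3 libraries per group, 0.1 is the smallest p of an exact permutation test. The members, gene lists and tests were chosen with earlier results of these data known. Named were all members past the threshold, the highest and lowest fold change of each class and treatment, a list of receptors with known roles, and partner genes past the threshold. Other names were chosen after their values were seen, as stated, and 1 listed receptor is not reported here. Exon lengths and upstream sequences came from RefSeq (TAIR10.1). By locus, 17512 genes matched, all overlapped their RefSeq gene and 40.4% shared a gene end. RefSeq products name NBS or NB-ARC for 154 genes, of which 108 were in the table, including 105 members, and 46 were not analysed here. Figures were drawn with matplotlib 3.10.9. Pooled ratios have 95% intervals from the exact (Clopper-Pearson) binomial interval.

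To see whether replicate numbers pair libraries, residuals from the group mean were correlated across genes for equal numbers, and 0.1 was required of each. The correlations were 0.335, 0.775 and 0.318 between EE and control, 0.553, 0.764 and 0.526 between EE and oviposition, and 0.0226, 0.674 and -0.157 between oviposition and control, so the limit was met for EE with both other groups but not for oviposition with control. Unequal numbers reached 0.432 (EE 1 with control 3) and 0.349 (EE 3 with control 1), so between EE and control the correlations set only number 2 apart.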

Additional observations from a re-analysis of the deposited data

How the results depend on the processing

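After EE, 3 members were called in the main model. The count was 5 without the mean-variance trend, 1 with a filter on a mean log2 of at least 0, which removes *RMG1* and 6 other members from the test, 1 at an adjusted p under 0.01, and 1 to 3 without each library in turn. It was 1 without each EE library and 2 without control replicate 1 or 3 or any oviposition library. With the filter At4g14370 stayed in the test but was not called (limma adjusted p = 0.0501). After oviposition the count of 1 was 3 without the trend and 0 when only 2 groups were modelled, with 1 CPM added, with the filter and with voom, and 1 without each library. Between EE and oviposition 0 became 1, *RMG1*, with 1 CPM added. With the replicate number as a block the same members were called, 3 after EE, 1 after oviposition and 0 between treatments. In the partner list, 1 gene called after EE became 0 at an adjusted p under 0.01 and without oviposition 1 and control 3, and was 0 to 1 without each library, and 0 after oviposition became 1 with the replicate block. In the salicylic acid list, 2 genes after EE became 1 at an adjusted p under 0.01 and without oviposition 1 and control 3, and were 1 to 2 without each library.

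Class medians moved by less than their spread between libraries (SD 0.36, 0.41 and 0.40 for TIR, CC and unclassed genes) under all alternatives run, but that spread is wider than the medians. Without each library in turn the TIR median ran from -0.01 to 0.41 after EE and from -0.45 to 0.08 after oviposition. Sign changes were counted for the members named by the rule and for At4g11340, named after its values were seen. Of those not called, 17 of 35 changed sign under at least 1 alternative after EE and 19 of 37 after oviposition, and the cause was not tested. A class from the kinase-2 motif of the proteins was not run. Genes near 1 read per library, such as At4g11340, are limited by depth.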

Other observations

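Several receptors of the list were outside the rule because their description holds no NBS. *ZAR1*, a CC receptor that forms a channel in the plasma membrane, had log2 CPM values of 8.15, 7.70 and 8.05 after EE, 8.37, 7.71 and 8.32 after oviposition, and 8.39, 7.79 and 8.98 in controls. Its log2 fold changes were -0.42 and -0.25, and the groups overlapped. *TAO1*, a TIR receptor of bacterial resistance, had -0.03 and -0.50, and *RFL1*, another receptor gene, had 0.73 and 0.32, with all EE libraries of *RFL1* above all controls. No limma adjusted p among these genes was below 0.482.

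The members' reads differed between libraries more than their group means did. Their summed level was 4501, 4666 and 4986 CPM after EE, 3288, 3302 and 5218 CPM after oviposition, and 6111, 4673 and 3552 CPM in controls.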
